A study of Homo sapiens with 42 samples.

Results

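The m6A peaks of HepG2 cells that carried SETD2 shRNA 2 were compared with those of cells that carried a control shRNA made for it. The members were all peaks of the authors' 2 pooled peak lists: 31249 in the control list and 29259 in the SETD2 shRNA 2 list, together 60508 of the 211410 peaks in the 7 lists of the series. A peak was called lost when no peak on the same strand of the SETD2 shRNA 2 list shared a base with its blocks, the stretches left once introns are taken out. It was called gained when the same held in the other direction, and kept otherwise.

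N6-methyladenosine (m6A) is a methylated base of messenger RNA that is written during transcription by a complex of METTL3, METTL14 and WTAP. It is densest near stop codons and in 3' untranslated regions, and it affects how long an mRNA lasts and how well it is translated. Close to the cap at the 5' end, mRNA can also carry a dimethylated adenosine, m6Am, which antibodies against m6A also bind. SETD2 is the methyltransferase that trimethylates lysine 36 of histone H3 along the bodies of transcribed genes. The series profiled m6A after shRNAs against SETD2 and against each of these complex members.

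HepG2 is a human hepatocellular carcinoma line. The cells were infected with lentivirus that expressed either SETD2 shRNA 2 or a non-specific control shRNA, and were selected with puromycin; both arms therefore went through infection and selection. The mRNA was broken by sonication, a part was pulled down with an m6A antibody (IP), and stranded libraries were made from IP and from unselected RNA (input). This comparison covered 12 of the 42 libraries, 3 input and 3 IP for each arm. The other lists used below come from a first control shRNA, METTL3 shRNA, METTL14 shRNA, WTAP shRNA and SETD2 shRNA 1. The labels do not say whether replicates were separate cultures, and the caller joined them into 1 list per condition. No value below therefore has a replicate error, and no p-value between the arms can be given. Intervals are exact (Clopper-Pearson, 95%) and cover counting error only, and peaks of a gene are not independent of each other. The number of reads behind the lists is unknown, and an absent peak means only that none was called. The level of SETD2 and the markers of liver cells were not analysed here, so the labels were not checked against either.

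The lists name genes by Ensembl identifier, and 0 of the 14386 identifiers were paired with a symbol in the tables used, so peaks are described by their place in the gene, their strength and their position on hg19, and not by the function of single genes.

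Of the control peaks, 6394 (20.5%) were lost and 24855 were kept. Of the SETD2 shRNA 2 peaks, 4250 (14.5%) were gained. Both shares moved with the rule: with at least 50% of both peaks shared they were 31.9 and 27.2%. Among peaks with p of at most 1e-05 and at least 2-fold enrichment, set against the whole other list, they were 7.88 and 2.79%. With both lists held to these limits they were 22.2 and 11.7%. Lost and gained peaks were spread over many genes: 3997 genes had lost peaks only, 2413 had gained peaks only, 1091 had both and 6885 had neither. Of the lost peaks, 74.5% lay in genes with a peak in the SETD2 shRNA 2 list, against 94.7% of all control peaks. Of the gained peaks, 77.2% lay in genes with a control peak, against 96.6% of all SETD2 shRNA 2 peaks.

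Losses were most frequent at the 5' end of the peak-bearing part of a gene, and gains were least frequent there. Among genes with 2 or more control peaks, the peak nearest the 5' end was lost in 26.3% of cases (2144 of 8157, interval 25.3 to 27.3%). Peaks between the first and the last were lost in 17.7% (16.9 to 18.5%) and the peak nearest the 3' end in 14% (13.3 to 14.8%). Over all control peaks the share was 20.5%, as above. Peaks that were the only one of their gene were lost in 26.3% (25.1 to 27.5%). The gains ran the other way, with 11.5% (10.8 to 12.2%) of the 5'-most SETD2 shRNA 2 peaks, 14.4% (13.6 to 15.1%) of the inner and 15.4% (14.6 to 16.3%) of the 3'-most peaks absent from the control list. That order of gains depended on the overlap asked for: when both peaks had to share at least 50% of their blocks, 25.9% of the 5'-most and 26.2% of the 3'-most peaks were gained, whereas 37.6% of the 5'-most and 24.3% of the 3'-most control peaks were lost. Place was ranked within each list. Where a gene lost its first control peak, a kept peak further on could therefore become its 5'-most peak with SETD2 shRNA 2. The 2 orders are thus not separate results, and how the losses bear on the share of gains at either end was not tested.

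The decline in losses from 5' to 3' was stepwise in genes with few peaks. In genes with 3 control peaks, the shares lost were 26.8, 18.9 and 12.6% from the first to the last peak. In genes with 4, they were 26.9, 20.2, 17.1 and 13.4%. In genes with 5 or 6 peaks the first peak was again the one lost most often, at 27.5% and 26%, but its interval overlapped that of the next peak, and the later ranks followed no strict order. The gains in genes with 3 SETD2 shRNA 2 peaks were 10.3, 14.4 and 16.0% from first to last, and in genes with 4 the first peak stood below the other ranks at 9.05%.

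**Figure D1:**
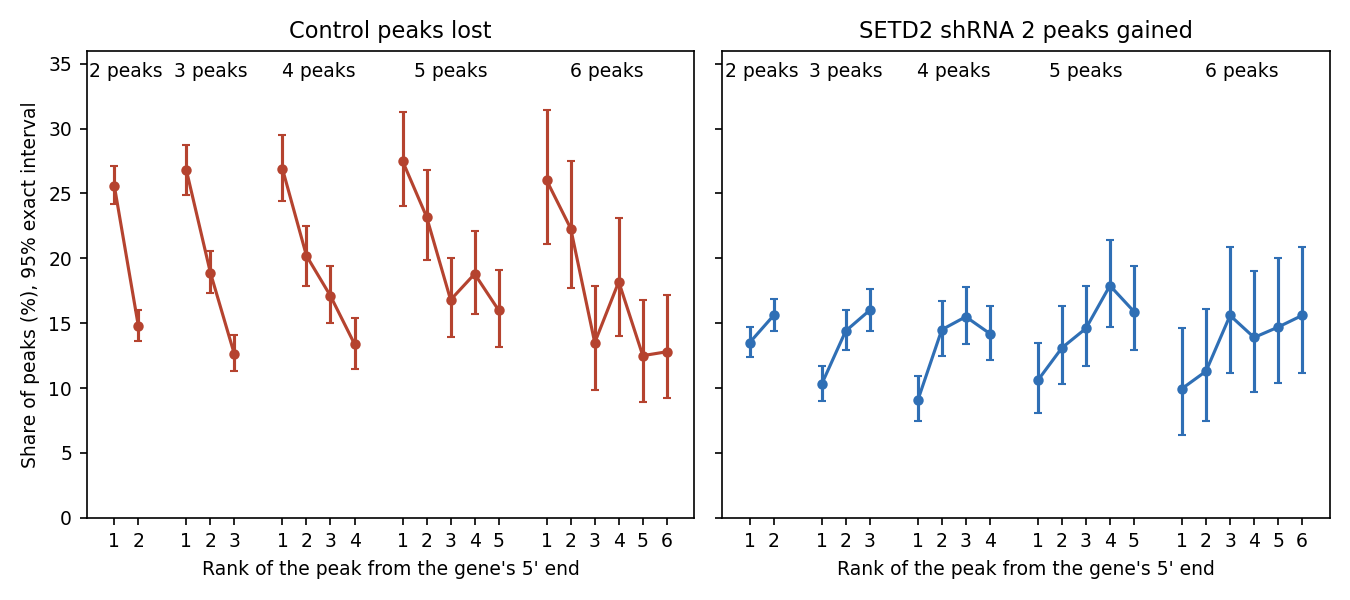
Share of control peaks lost (left) and of SETD2 shRNA 2 peaks gained (right), in percent, by rank of the peak from the gene's 5' end, for genes of 2 to 6 peaks; bars are 95% exact intervals for counting error. In genes of 3 control peaks the share lost steps down from 26.8% to 12.6%, while the share gained in genes of 3 peaks steps up from 10.3% to 16.0%.

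Genes with exactly 2 control peaks allow the ends to be set against each other within a gene. Of 3613 such genes, 739 (20.5%, interval 19.1 to 21.8%) lost the 5' peak alone and 347 (9.6%, 8.66 to 10.6%) lost the 3' peak alone. Both peaks were lost in 186 genes and neither in 2341. Among the 3469 genes with 2 SETD2 shRNA 2 peaks, the 5' peak alone was gained in 341 and the 3' peak alone in 415. The intervals of these shares touched, at 8.86 to 10.9% and 10.9 to 13.1%. Both shares come from the same genes, so the intervals do not measure their difference, which was not tested.

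The ends of a gene differ in peak strength as well, and the losses were therefore also counted among peaks of similar strength. Fold enrichment (IP over input) and p are the authors' values for each peak. In the control list the median fold enrichment was 6.44 for 5'-most, 3.5 for inner and 3.56 for 3'-most peaks, and the median log10 p was -9.64, -11.9 and -13.6. Peaks were placed in 5 classes of equal size by p, class 1 having the best. The 5'-most peaks were lost more often than the 3'-most in every class: 0.275% against 0.0529% in class 1, 3.32% against 1.39% in class 2 and 16.2% against 6.79% in class 3. The shares were 40.5% against 22.5% in class 4 and 64.8% against 49.6% in class 5. The intervals were apart in classes 2 to 5 and overlapped in class 1, where 4 of 1456 and 1 of 1890 peaks were lost. In the combinations of a p class with a class by fold enrichment, the 5'-most peaks were lost more often in 21 of 25 combinations, less often in 2 and equally often in 2; all 15 combinations of p classes 3 to 5 were among the 21. Gains were more frequent among the 3'-most peaks in 17 of 25 combinations and in all 15 of p classes 3 to 5.

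The same order of losses held among strong peaks and on both strands. Among control peaks with p of at most 1e-05 and fold enrichment of at least 2, of which 7.88% were lost in all, the share was 12% (11.1 to 12.9%) for 5'-most, 6.66% for inner and 3.75% (3.26 to 4.28%) for 3'-most peaks. On the plus strand 25.9% of 5'-most and 14.2% of 3'-most peaks were lost, and on the minus strand 26.7% and 13.9%. Peaks with 1 block were lost in 33.1% of cases at the 5' end and in 15.9% at the 3' end. Peaks with 2 or more blocks, which cross at least 1 splice junction, were lost in 17.8% and 8.08%. Of the SETD2 shRNA 2 peaks within the same limits of p and fold, 2.79% were gained in all. The share was 1.86% (1.5 to 2.29%) at the 5' end, 3.03% (2.59 to 3.52%) for inner peaks and 3.02% (2.56 to 3.54%) at the 3' end.

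Peaks that were kept differed in width along the gene in the same direction. Of the kept control peaks, 20746 (83.5%) matched a single SETD2 shRNA 2 peak that matched no other control peak. Of all these matched peaks, 44.1% were narrower in the SETD2 shRNA 2 list and 33.4% were wider. Among 5058 matched 5'-most peaks, 56.5% (55.2 to 57.9%) were narrower in the SETD2 shRNA 2 list and 22.5% (21.3 to 23.6%) were wider. Inner peaks were narrower in 41.5% and wider in 37.0%, and the only peaks of their genes in 44.4% and 30.0%. The 3'-most peaks had the opposite balance, narrower in 36.1% (34.8 to 37.3%) and wider in 40.6% (39.3 to 41.8%). The median width of the 5'-most pairs was 270 bases in the control list and 240 in the SETD2 shRNA 2 list. Where both peaks had 1 block, the 3' edge of 5'-most peaks lay further inward in 47.1% and further outward in 21.9%, and their 5' edge lay inward in 39.7% and outward in 18.6%. Over all pairs of 1 block, the 3' edge lay inward in 33.7% and outward in 27.6%. For the 3'-most peaks, the 3' edge lay inward in 26.9% and outward in 29.9%. Their 5' edge lay inward in 31.9% and outward in 30.9%.

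**Figure D2:**
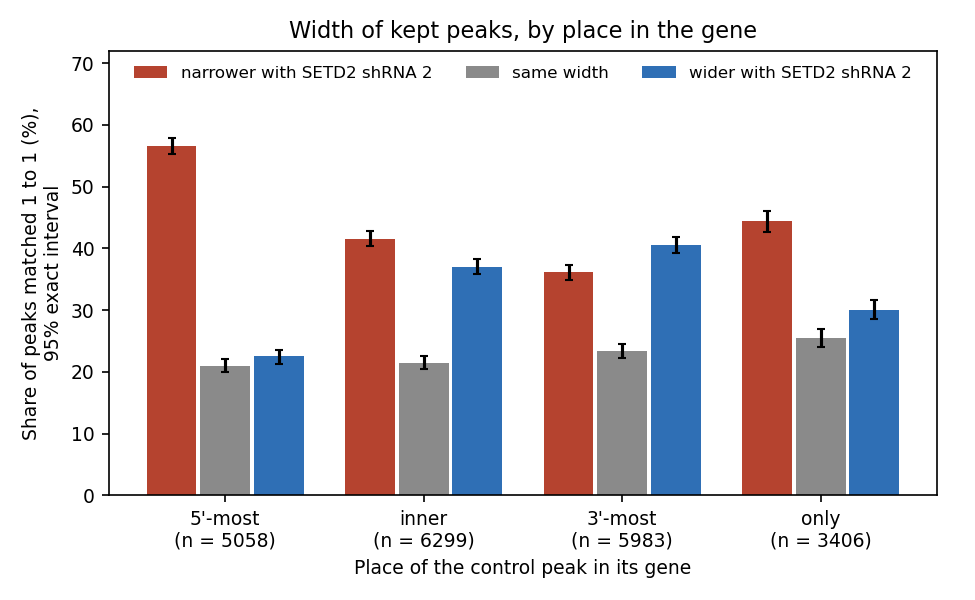
Share of kept peaks matched 1 to 1, in percent, that were narrower (red), equally wide (grey) or wider (blue) in the SETD2 shRNA 2 list, by place of the control peak in its gene; error bars are 95% exact intervals. Narrower peaks make up 56.5% at the 5' end and 36.1% at the 3' end, where wider peaks make up 40.6%.

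Lost and gained peaks were weak by p, whereas fold enrichment alone separated them less. The median log10 p was -3.75 for lost and -17.0 for kept control peaks, while the median fold enrichment was 4.04 and 4.37. Gained peaks had a median log10 p of -3.46 and a median fold enrichment of 2.77, against -11.9 and 3.96 for the kept peaks of their list. By p class the share lost was 0.128% in class 1, 2.14% in class 2, 11.7% in class 3, 31.8% in class 4 and 56.5% in class 5. By fold enrichment the share lost was U-shaped, at 24.9% in the highest class, 16.0 to 19.4% in the middle classes and 25.7% in the lowest. Among control peaks of the worst p class, the share lost was 75.0% in the class of highest fold enrichment and 44.4% in the lowest. Gained peaks in the worst p class were also most frequent at the highest fold enrichment, with 50.9% (47.9 to 53.8%) against 42.4% (40.2 to 44.8%) at the lowest. With p in class 3 the order of the gains was different: 281 of 1405 peaks of lowest fold enrichment were gained (17.9 to 22.2%) and 1.83 to 5.06% of those in the other fold classes.

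**Figure D3:**
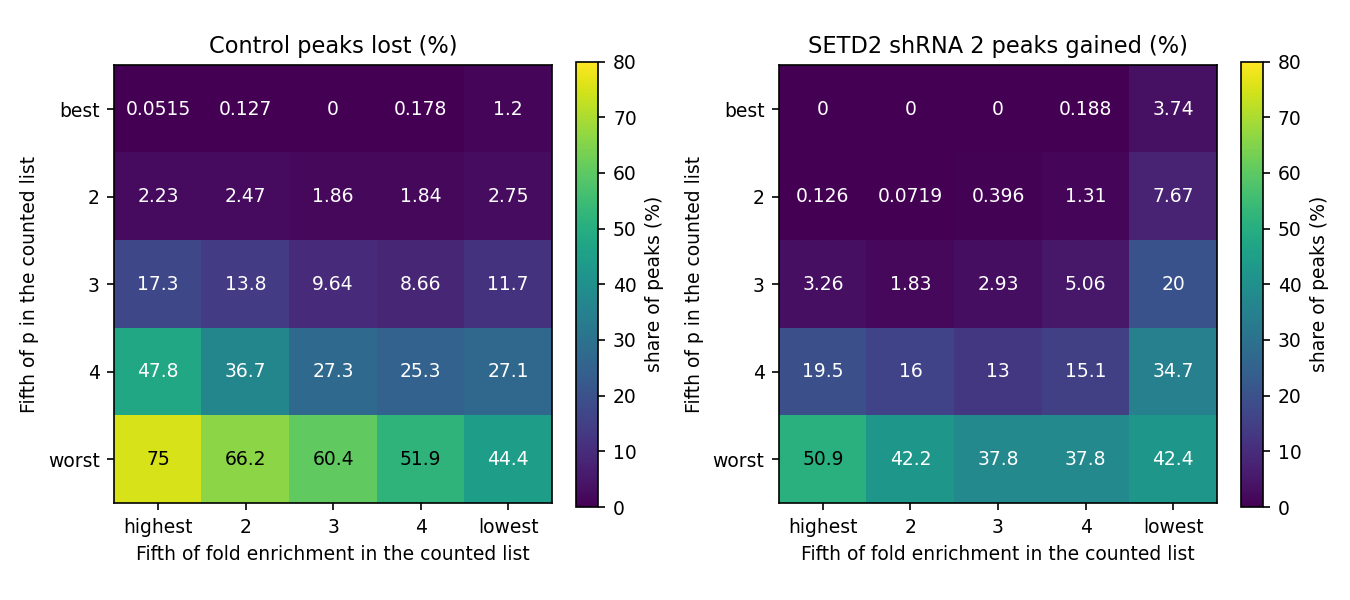
Share of control peaks lost (left) and of SETD2 shRNA 2 peaks gained (right), in percent, in 5 classes by p (rows, best at the top) and 5 classes by fold enrichment (columns, highest at the left) of the counted list. At the worst p the share lost runs from 75.0% at the highest fold to 44.4% at the lowest.

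Lost and gained peaks were narrower than kept peaks and somewhat more often of 1 block. Peaks of 1 block were 75.6% of the lost and 64.3% of all control peaks. They were 79.1% of the gained and 65.6% of all SETD2 shRNA 2 peaks. The median width was 149 bases for lost, 120 for gained and 270 for kept control peaks. Of control peaks up to 100 bases wide, 56.7% were lost, against 11.5% of those of over 200 to 300 bases and 0.7% of those of over 500 to 1000 bases. None of 796 control peaks over 1000 bases wide was lost, which allows up to 0.462%. Of peaks with 1 block 24.1% were lost, of those with 3 blocks 8.68% and of those with 5 or more 0.94%.

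Few calls turned on the choice of a single shared base. Of the kept control peaks, 129 shared exactly 1 base with a SETD2 shRNA 2 peak and 133 at most 10 bases, while the median share was 93.7% of the control peak. The lost peak nearest to a SETD2 shRNA 2 peak was 7 bases away from it. Within 100 bases of such a peak lay 4.82% of the lost peaks, and within 1000 bases 32.8%. The median distance was 5072 bases. For gained peaks the corresponding shares were 7.09% and 38.5%, and the median distance 2856 bases, over the 4248 that had a control peak on their chromosome and strand.

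At the level of genes, 1423 (10.5%) of the 13526 control genes had no peak in the SETD2 shRNA 2 list, and 860 (6.63%) of its 12963 genes had no control peak. Most of these carried a single peak: 1234 of the genes left without a peak had 1 control peak, and 754 of the new genes had 1 peak. Of genes with 1 control peak 23.0% were left without any, of genes with 2 peaks 4.32% and of genes with 3 peaks 0.893%. A total of 189 genes with 2 or more control peaks had none left, and 106 genes with 2 or more SETD2 shRNA 2 peaks had no control peak. Among the 12103 genes in both lists, 3032 had fewer peaks with SETD2 shRNA 2, 6927 had as many and 2144 had more.

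The gene with the most peaks and none left was ENSG00000116151.13 on the minus strand of chr1:2306990-2310288, with 7 control peaks of 6.49- to 17.6-fold enrichment. Their log10 p ran from -4.62 to -2.6, so none was within the limits of 1e-05 and 2-fold. The first control list held 4 peaks of this gene and the SETD2 shRNA 1 list also 4. Next came ENSG00000213015.8 on the plus strand of chr19:56146442-56153968, with 5 control peaks of 3.82- to 5.65-fold enrichment and a best log10 p of -8.53. It had 3 peaks in the first control list and 2 in the SETD2 shRNA 1 list.

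Of the genes with the most gained peaks, ENSG00000143631.10 on the minus strand of chr1:152276241-152286437 had no control peak and 8 peaks with SETD2 shRNA 2, of 3.62- to 15.9-fold enrichment. It had 9 peaks in the first control list and 0 in the SETD2 shRNA 1 list. ENSG00000182670.13 on the plus strand of chr21:38456405-38560849 had 1 control peak, which was kept, and 7 peaks with SETD2 shRNA 2, of which 6 were gained. It had 2 peaks in the first control list and 0 in each of the METTL3, METTL14, WTAP and SETD2 shRNA 1 lists. Its gained peaks were part of a run of 8 consecutive gained peaks on chr21:38471225-38593918, of 1.42- to 3.3-fold enrichment, of which 5 were in no other list.

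Gained peaks were less often found in the other lists than lost peaks, and lost peaks less often than kept ones. Of the lost peaks, 66.5% (65.3 to 67.6%) overlapped a peak of the first control list, against 89.0% (88.6 to 89.4%) of the kept control peaks and 48.7% of the gained peaks. In the SETD2 shRNA 1 list the shares were 43.7% of lost, 82.2% of kept and 32.4% of gained peaks. In the METTL3, METTL14 and WTAP lists the lost peaks were present in 50.6, 44.8 and 47.0% and the gained peaks in 34.1, 28.6 and 28.4%. All 5 other lists held 1755 (27.4%) of the lost, 649 (15.3%) of the gained and 67.5% of the kept control peaks. None of them held 1563 (24.4%) of the lost, 1807 (42.5%) of the gained and 8.24% of the kept control peaks.

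**Figure D4:**
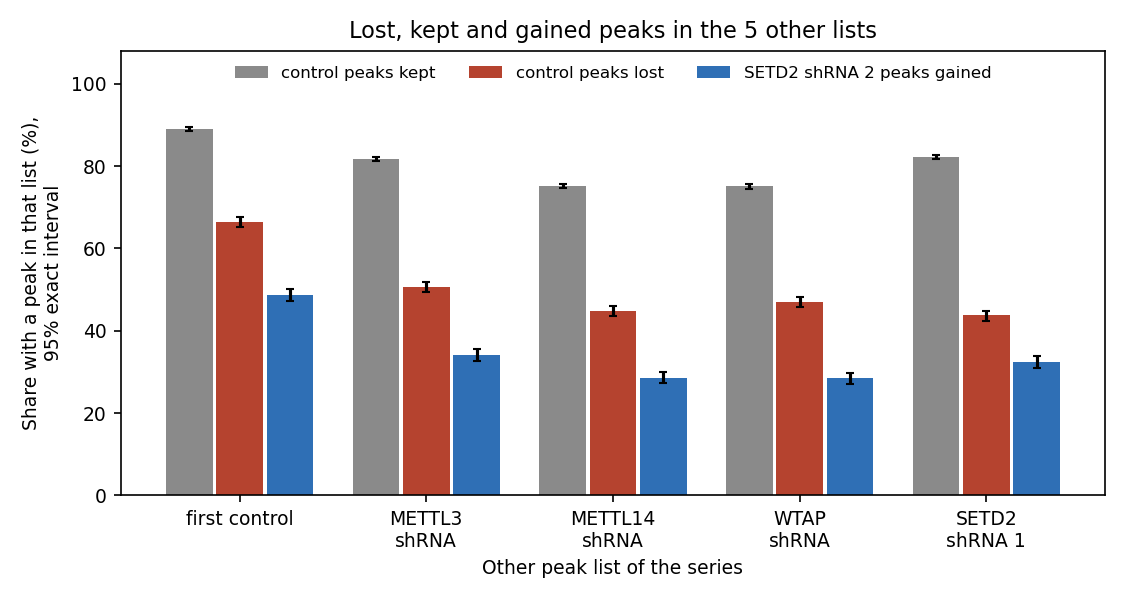
Share of kept control peaks (grey), lost control peaks (red) and gained SETD2 shRNA 2 peaks (blue), in percent, that overlapped a peak of each of the 5 other lists; error bars are 95% exact intervals. In every list the kept peaks stand highest and the gained peaks lowest, with 89.0%, 66.5% and 48.7% in the first control list.

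Peak strength moved with these shares, and lost peaks were also below kept peaks of the same p class in the first control list. In p class 4, 74.3% of lost and 81.9% of kept control peaks were in the first control list, and in p class 5 57.9% and 73.0%. For gained peaks the shares were 46.8% in class 3, 51.8% in class 4 and 47.6% in class 5, against 87.3, 85.2 and 79.6% of the kept peaks of the same classes. Lost peaks at the 5' end were in the first control list in 70.7% (68.7 to 72.6%) of cases and lost peaks at the 3' end in 60.5% (57.6 to 63.3%). In the SETD2 shRNA 1 list the lost 5'-most peaks were present in 42.0% (39.9 to 44.1%) and the lost 3'-most peaks in 44.0% (41.1 to 46.9%).

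The place of losses in the gene was also counted for SETD2 shRNA 1 against the first control, whose libraries are other than those of SETD2 shRNA 2 and its control. Of the first control peaks 27% were absent from the SETD2 shRNA 1 list, and 29.9% of the 5'-most, 26.7% of the inner and 22.5% of the 3'-most peaks. The difference between the ends was thus 5' over 3' with both shRNAs. Of the SETD2 shRNA 1 peaks 8.07% were gained, with 7.09% (6.51 to 7.7%) at the 5' end and 7.86% (7.26 to 8.51%) at the 3' end, where the intervals overlapped. The lists of the 2 controls were counted in the same way. Of the first control peaks 28.6% were absent from the control list, and 25.1% (24.1 to 26%) of the 5'-most and 25.7% (24.8 to 26.7%) of the 3'-most peaks, with inner peaks highest at 33.5%. In the other direction 15.6% of control peaks were absent from the first control list, 13.2% (12.5 to 13.9%) at the 5' end, 15.2% of the inner peaks and 16.2% (15.4 to 17.0%) at the 3' end. The order of the gains with SETD2 shRNA 2, low at the 5' end and high at the 3' end, was thus also found between the controls, but only in the latter direction. The order of its losses was found in neither direction. The comparison between controls shares a list with each comparison with SETD2 shRNA, and the values are given beside each other without a test.

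Along the chromosomes, 2 windows stood apart from the rest in their share of gains, and none did in its share of losses. Among the 475 windows of 1 Mb with at least 20 control peaks, the share lost had a median of 19%, quartiles of 13.8 and 25% and a highest value of 46.2%. Among the 440 windows with at least 20 SETD2 shRNA 2 peaks, the share gained had a median of 12.5%, quartiles of 8.33 and 18.0% and a highest value of 81.8%. By chromosome, the share lost lay between 17.2% on chromosome 6 and 23.4% on chromosome 19 among the autosomes and X.

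The window with the highest share of gains lies in the epidermal differentiation complex of chromosome 1, a cluster of genes for structural proteins of the outer skin layer. There, 18 consecutive peaks of the SETD2 shRNA 2 list were gained, on chr1:152192022-152770342, in 8 genes and on both strands. Of these, 8 were the peaks of ENSG00000143631.10 described above. A plus-strand peak of another gene, chr1:152286342-152286431, lay over the last of them, chr1:152286377-152286437. The peaks of the run made up 18 of the 22 peaks of the window (59.7 to 94.8%, an interval that takes the peaks as independent), and none of the 8 control peaks in the window was lost. Their fold enrichment ran from 2.57 to 18.7 and their log10 p from -11.6 to -2.61, and 4 of them were within the limits of 1e-05 and 2-fold. The strongest by fold, chr1:152192771-152193461 on the minus strand, was 691 bases wide with 18.7-fold enrichment. Of the 18, 11 overlapped a peak of the first control list, 12 of the WTAP list, 7 of the METTL14 list, 2 of the METTL3 list and 1 of the SETD2 shRNA 1 list.

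**Figure D5:**
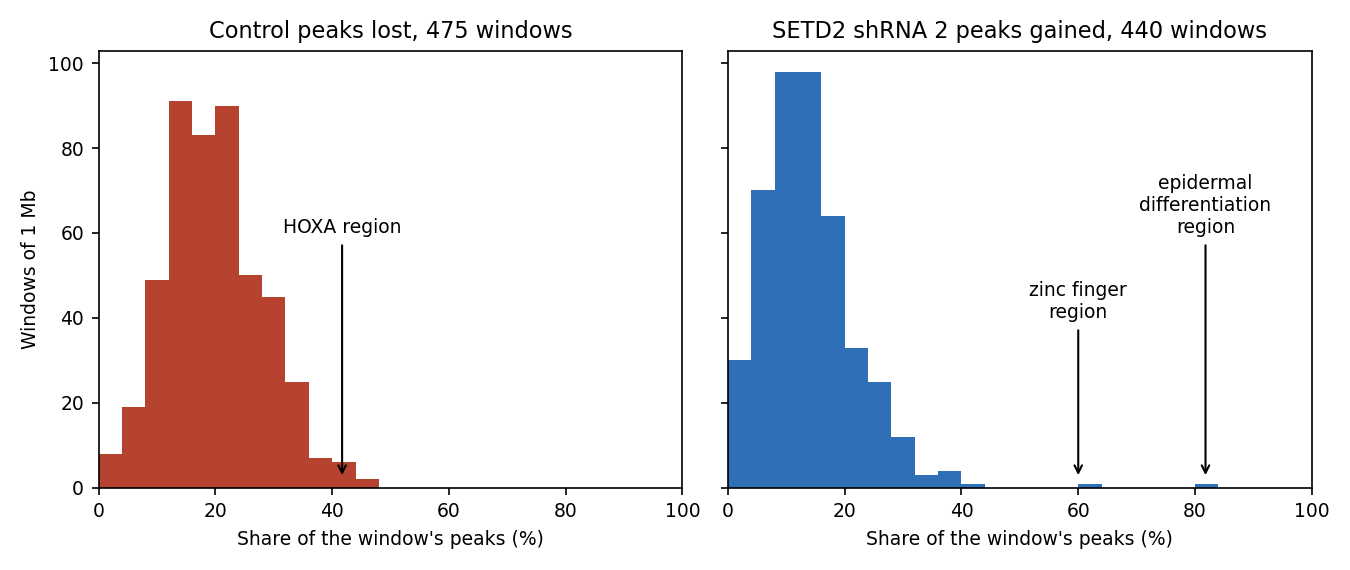
Number of 1 Mb windows (vertical axis) by the share of their peaks, in percent, that was lost (left, 475 windows) or gained (right, 440 windows); only windows with at least 20 peaks of the counted list are shown. The windows of the epidermal differentiation complex, at 81.8%, and of a zinc finger gene cluster, at 60.0%, stand above all others on the right; the HOXA window is at 41.7% on the left.

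The window with the next highest share of gains lies at 53 to 54 Mb of chromosome 19, in the clusters of genes for KRAB zinc finger proteins, DNA-binding repressors that mostly silence transposable elements. There, 24 of 40 peaks were gained (60.0%, 43.3 to 75.1%). Over the zinc finger clusters of 19q13 as a whole, from 52 to 59 Mb, both directions stood above the overall shares: 110 of 402 control peaks were lost (27.4%, 23.1 to 32.0%) and 87 of 382 peaks gained (22.8%, 18.7 to 27.3%). The peaks of 19q13 were weaker than those of the whole lists. Their median log10 p was -6.44 in the control and -5.72 in the SETD2 shRNA 2 list, against -10.7 and -8.86 over all peaks. In the clusters of 19p12 at 20 to 24 Mb, 6 of 12 control peaks were lost and 10 of 16 peaks gained. The peaks there were weak, with a median log10 p of -3.09 in the control list.

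The HOXA window had the fifth highest share of losses, after windows at 17 to 18 Mb of chromosome 1 (46.2%), 46 to 47 Mb of chromosome 22 (45.5%), 37 to 38 Mb of chromosome 19 (43.8%) and another on chromosome 1 (42.9%). Losses outnumbered gains in the HOXA region of chromosome 7, at 27 to 28 Mb, which holds a cluster of homeobox genes that set position along the body axis. There, 10 of 24 control peaks were lost (41.7%, 22.1 to 63.4%) and 1 of 14 SETD2 shRNA 2 peaks was gained. The median log10 p of the control peaks was -3.56, weaker than in the list as a whole (-10.7). In the protocadherin clusters of chromosome 5, genes for adhesion proteins of neurons, 33 of 103 control peaks were lost (32.0%, 23.2 to 42.0%) and 14 of 84 gained (16.7%), with a median log10 p of -5.27 in the control list. With SETD2 shRNA 1, 13 of 26 first control peaks were absent in the HOXA region and 50 of 112 in the protocadherin clusters, and 0 of 14 and 0 of 67 peaks were gained. In the regions with the most gains the values with SETD2 shRNA 1 were different. For the epidermal differentiation complex, these counts cover the window with the highest share of gains together with the window that follows it. There, 23 of 59 first control peaks were absent (39.0%) and 2 of 42 SETD2 shRNA 1 peaks gained (4.76%), beside 8 of 48 lost and 21 of 57 gained with SETD2 shRNA 2. The following window alone held 40 of the 48 control peaks and the 8 lost ones, but only 3 of the 21 gained peaks. SETD2 shRNA 1 was not counted for each window alone. In the zinc finger clusters of 19q13, 148 of 441 were absent (33.6%) and 28 of 359 gained (7.8%), the latter beside 8.07% over all SETD2 shRNA 1 peaks.

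Regions of liver and immune genes varied, and some held few peaks. Each count covers all peaks of a window, which were not assigned to the genes the region is named for. In the major histocompatibility complex, at 29 to 34 Mb of chromosome 6, whose genes present antigens to T cells, 35 of 280 control peaks (12.5%, 8.86 to 17.0%) were lost, below the share over all peaks, and 34 of 286 gained (11.9%). The peaks there were stronger than in the whole lists. Their median log10 p was -17.9 in the control and -13.0 in the SETD2 shRNA 2 list, against -10.7 and -8.86 over all peaks. In the serpin A cluster of chromosome 14, at 94 to 96 Mb, genes for protease inhibitors secreted by the liver, 8 of 54 were lost and 8 of 52 gained. In the region of the fibrinogen genes on chromosome 4, which encode the clot-forming protein of plasma, none of 9 control peaks was lost and 2 of 10 were gained. In the region of the apolipoprotein A1 cluster on chromosome 11, genes for proteins of plasma lipoproteins, 3 of 10 control peaks were lost and 3 of 10 gained. The albumin and alpha-fetoprotein genes, which encode the main plasma proteins of adult and fetal liver, lie at 74 to 75 Mb of chromosome 4. In that window, 1 of 3 control peaks was lost and 2 of 4 SETD2 shRNA 2 peaks were gained. The 3 control peaks lay in 2 genes, on bases 74005261 to 74606432. None of the peaks of the window was shown to lie in either named gene. In the large histone gene cluster, at 26 to 28 Mb of chromosome 6, 8 of 45 control peaks were lost (17.8%) and 13 of 52 gained (25%, 14 to 38.9%). The window at 2 to 3 Mb of chromosome 11 holds IGF2 and H19, an imprinted locus of a fetal growth factor. In that window 3 of 28 control peaks were lost and 9 of 32 gained (28.1%, 13.7 to 46.7%). Of the 9, 5 belonged to a single gene, ENSG00000269821.1, whose peaks lay on the minus strand of chr11:2654904-2721224.

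The longest runs of lost peaks held 8 consecutive control peaks. One lay on chr3:134204640-134979099 in 3 genes, with 1.78- to 11.5-fold enrichment, and none of its peaks was in the SETD2 shRNA 1 list while 6 were in the first control list. The other lay on the plus strand of chr19:56146442-56159437 in 3 genes, including ENSG00000213015.8, with 7 of its peaks in the first control list and 3 in the SETD2 shRNA 1 list. A run of 7 lost peaks on chr20:44642132-44650503 was the only run of at least 7 whose peaks were all found in each of the 5 other lists.

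Among strong peaks, with p of at most 1e-05 and fold enrichment of at least 2, the 10 lost ones of highest fold enrichment ranged from 47.3- to 60.3-fold, and 7 of them were the 5'-most peak of their gene and none the 3'-most; 5'-most peaks also had the higher fold enrichment in the control list as a whole. In 9 of the 10, the gene had at least 1 peak in the SETD2 shRNA 2 list. The highest was on the minus strand at chr16:11836406-11836615 (60.3-fold, log10 p -17.9), and a lost peak of another gene lay over it on the plus strand at chr16:11836064-11836631 (48.1-fold). Both were found in the first control, WTAP and SETD2 shRNA 1 lists and in neither the METTL3 nor the METTL14 list. The next was at chr7:101891774-101892044 on the plus strand (58.0-fold), the seventh of 9 peaks of its gene, with a SETD2 shRNA 2 peak 119 bases away. At chr17:635831-636188 the 5' peak of a gene with 2 peaks was lost (55.0-fold), and the other peak of the gene lay 8445 bases from it in the SETD2 shRNA 2 list. Of the 10, 9 were in the first control list and 7 in the SETD2 shRNA 1 list.

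The 10 lost peaks of best p, among the same strong peaks, had log10 p from -327 to -48.2 and fold enrichment from 2.29 to 16.0. Of these, 5 were the 5'-most of their gene, 2 inner, 1 the 3'-most and 2 the only peak. The peak at chr16:89627574-89627844 on the plus strand had the best p at 2.78-fold enrichment, and a SETD2 shRNA 2 peak of the same gene lay 209 bases away. The next was the 5' peak of 2 at chr1:55505221-55505698 on the plus strand, 478 bases wide, with 9.16-fold enrichment and log10 p -94.1. The third was the first of 6 peaks of its gene at chr11:32112538-32113236 on the plus strand, with 16.0-fold enrichment. Each of the 10 except one was found in all 5 other lists. The exception, at chr3:184033191-184033430 on the plus strand (3.19-fold), was found in none of them.

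The 10 gained strong peaks of highest fold enrichment ranged from 20.6- to 28.1-fold. Of these, 1 was 5'-most, 1 inner, 4 were 3'-most and 4 the only peak of their gene. The highest, at chr7:105550812-105550962 on the plus strand (28.1-fold), was an inner peak of 3 and was otherwise found in the first control list alone. Of the 10, 2 lay in the zinc finger clusters of chromosome 19, at chr19:53844122-53848883 (26.2-fold) and chr19:53059310-53059459 (21.2-fold), both on the plus strand. The first was in no other list, and the second in the first control list alone. Only 2 of the 10 were in the SETD2 shRNA 1 list, and 7 were in the first control list.

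The 10 gained strong peaks of best p had log10 p from -56.9 to -20.9 and fold enrichment from 2.01 to 7.5. The best, at chr19:13054932-13055022 on the minus strand, was 91 bases wide at 2.01-fold, just inside the limit of 2, and was in no other list. The peak at chr9:130911733-130912632 on the plus strand had the highest fold of the 10 (7.5), was the only peak of its gene and was found in all 5 other lists. At chr12:53294407-53294646 on the minus strand, an inner peak of a gene with 7 peaks (4.25-fold) was in no other list. Of these 10, 7 were in the first control list and 7 in the SETD2 shRNA 1 list.

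Where peaks overlapped on opposite strands, both were lost more often than 1 of them. The control list held 1677 pairs of peaks that overlapped on opposite strands, and in 231 of them (13.8%) both were lost, in 159 (9.48%) 1 was lost and in 1287 neither. Of the 1477 such pairs in the SETD2 shRNA 2 list, both peaks were gained in 115 (7.79%) and 1 in 86 (5.82%). Peaks in such pairs were not lost or gained more often than others. In the control list 591 of 3122 (18.9%) were lost, against 20.5% of all control peaks. In the SETD2 shRNA 2 list 306 of 2755 (11.1%) were gained, against 14.5% of all its peaks. Whether reads of one strand were counted for the other was not tested. Of the 6394 lost peaks, 121 (1.89%) lay over a SETD2 shRNA 2 peak of the opposite strand, against 2439 of 24855 (9.81%) kept control peaks.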

How the data were processed

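FastQC 0.11.5, TopHat2 2.1.1 and hg19 are named in the submitters' processing notes. Replicates 1 to 3 of a condition went into exomePeak jointly, per the labels, which gave 1 list per condition. Neither the caller's version nor its gene models are stated in the labels or files. For each peak the authors deposited a p-value for IP over input. A pair of further columns deposited by the authors, log10 p and log10 FDR (false discovery rate), are treated as scores. The deposited fold enrichment is IP divided by input, a ratio. The largest FDR was 0.0501 in both lists. The authors also gave shorter lists; those of SETD2 shRNA 2 and its control, the ones checked, held the peaks with p up to 1e-05 and at least 2-fold enrichment, with no exception. No reads or counts were analysed.

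Repeats with the same strand and blocks were dropped, 21 in the control list and 13 in the SETD2 shRNA 2 list. Overlaps were computed with Python 3.11.15, using pandas 2.3.3, numpy 2.4.6 and, for intervals, scipy 1.17.1. They were tested on simulated data, and figures were drawn with matplotlib 3.10.9. Coordinates count from 1. A peak's place was its rank by the midpoint of its span among the peaks of its gene in its own list. Strong peaks were named by rule: the 10 lost and the 10 gained of highest fold enrichment and of best p. Genes were named by the number of peaks gone or gained, with 2 identifiers in each direction; SETD2, the complex members and genes of functional lists, also in the rule, could not be named without symbols. A few other peaks are named as part of the longest runs. Members, gene clusters and lists were chosen with earlier results of these data known. Alternatives were other overlap rules, p, FDR and fold limits, and either strand.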

Additional observations from a re-analysis of the deposited data

How the results depend on the processing

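Of the values recomputed under alternatives, 24 stayed within the counting interval of the reported value and 36 moved. The share lost over all peaks exceeded the share gained under each alternative run. The alternatives for the ends of genes were chosen after seeing the data. With at least 50% of both peaks shared, 31.9% of control peaks were lost and 27.2% of SETD2 shRNA 2 peaks gained, with 37.6 and 24.3% lost and 25.9 and 26.2% gained at the 5' and 3' ends. With peaks within 100 bases counted as shared, the shares were 19.5% lost and 13.5% gained, with 25.2% lost and 10.6% gained at the 5' end and 14.5% gained at the 3' end. With both lists held to p of at most 1e-05 and fold of at least 2, 22.2% were lost and 11.7% gained, 29.9 and 15.2% were lost and 8.26 and 13.2% gained at the 5' and 3' ends, 14.1% of control genes were left without a peak, and 42.4% of kept peaks were narrower and 31.8% wider. With both lists held to a fold of at least 3, 29.1% were lost and 19.1% gained, 33.7 and 21.1% were lost and 14.4 and 21.5% gained at the 5' and 3' ends, 17.2% of control genes were left without a peak and 9.71% of SETD2 shRNA 2 genes had no control peak. With an FDR of at most 1e-05 in both lists, the 4 shares were 21.4% lost, 9.86% gained, 14% of control genes and 5.65% of SETD2 shRNA 2 genes. With the counted list alone held to p of at most 1e-05 and fold of at least 2, they were 7.88, 2.79, 3.5 and 1.12%. The cause of these shifts was not tested. Overlap rules do not enter the counts of genes, which go by identifier. The alternatives for functional gene lists were not run, because no identifier was paired with a symbol. No paired analysis was possible because the replicates were joined into 1 list per condition, and for the same reason no replicate could be left out. The depth is unknown, so it cannot be said which absent peaks lay below detection.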
